A study of Mus musculus with 2 samples.

Results

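The 43 genes described here mark or regulate blood and lymphatic endothelium: 8 genes of secreted angiogenic factors, 11 of receptors, 7 of transcription factors, 11 of junction and cell surface proteins, 5 of secreted or matrix proteins and 1 enzyme gene. They were taken by symbol from a list of names that applies no cut on a measured value. The list was drawn up with earlier results of these data known. All 43 were found among the 43346 gene rows. The RNA came from embryonic facial prominence, the tissue that builds the face and jaws, of B6NCrl mouse embryos of 15.5 days, male and female together. There was 1 group of 2 libraries, given as biological replicates, with RNA of 78 embryos in replicate 1 and of 62 embryos in replicate 2, both from healthy animals of 1 donor label. No treatment, mutant or second tissue was present, so every difference below is between genes or between the 2 pools, no test of a condition exists and the spread is that of 2 pools.

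Endothelial cells line blood and lymphatic vessels. Their growth is steered by the VEGF ligands, which bind the tyrosine kinase receptors encoded by Flt1, Kdr and Flt4, and by the angiopoietins, which act through the receptor encoded by Tek. Lymphatic vessels arise from veins, under the control of the transcription factors encoded by Sox18 and Prox1, and sprout towards the ligand encoded by Vegfc, which acts through Flt4. Levels are given in TPM, a share of all transcripts that is scaled by length and so allows genes to be compared within a library. The depth was 37128010 expected counts for replicate 1 and 38543623 for replicate 2, and 1 read on a transcript of 1 kb was worth 0.0406 and 0.0389 TPM. Spike-in sequences took 2.91% of the counts of replicate 1 and 4.59% of those of replicate 2. Of the summed TPM of all rows they took 6.42% and 10.1%, and levels in TPM below hold that difference between the libraries. In RNA of a whole tissue, fewer cells of a type and less RNA per cell cannot be told apart.

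All 43 genes reached 1 TPM in both libraries, a level that 65.4% of coding genes reached. Their median level was 14.6 TPM in replicate 1 and 14.3 TPM in replicate 2, and the coding genes at 1 TPM or more had medians of 18.01 and 18.07 TPM. The lowest mean was that of Prox1 at 2.25 ± 0.488 TPM and the highest that of Ramp2 at 111 ± 1.24 TPM (SD, n = 2). By mean level, 19 of the 43 genes stood above the median of detected coding genes. By role, junction and surface genes had the highest median (28.7 ± 1.61 TPM), followed by receptors (19.4 ± 0.00707 TPM), transcription factors (12.6 ± 1.87 TPM), ligands (9.14 ± 1.31 TPM), secreted and matrix proteins (6.91 ± 0.0778 TPM) and the enzyme gene Nos3 (5.35 ± 0.332 TPM). The defining endothelial genes were present at moderate levels, with Pecam1 at 34.7 ± 0.431 TPM, Cdh5 at 25.95 ± 0.537 TPM and Kdr at 19.4 ± 0.00707 TPM, and no member was at or near 0.

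**Figure D1:**
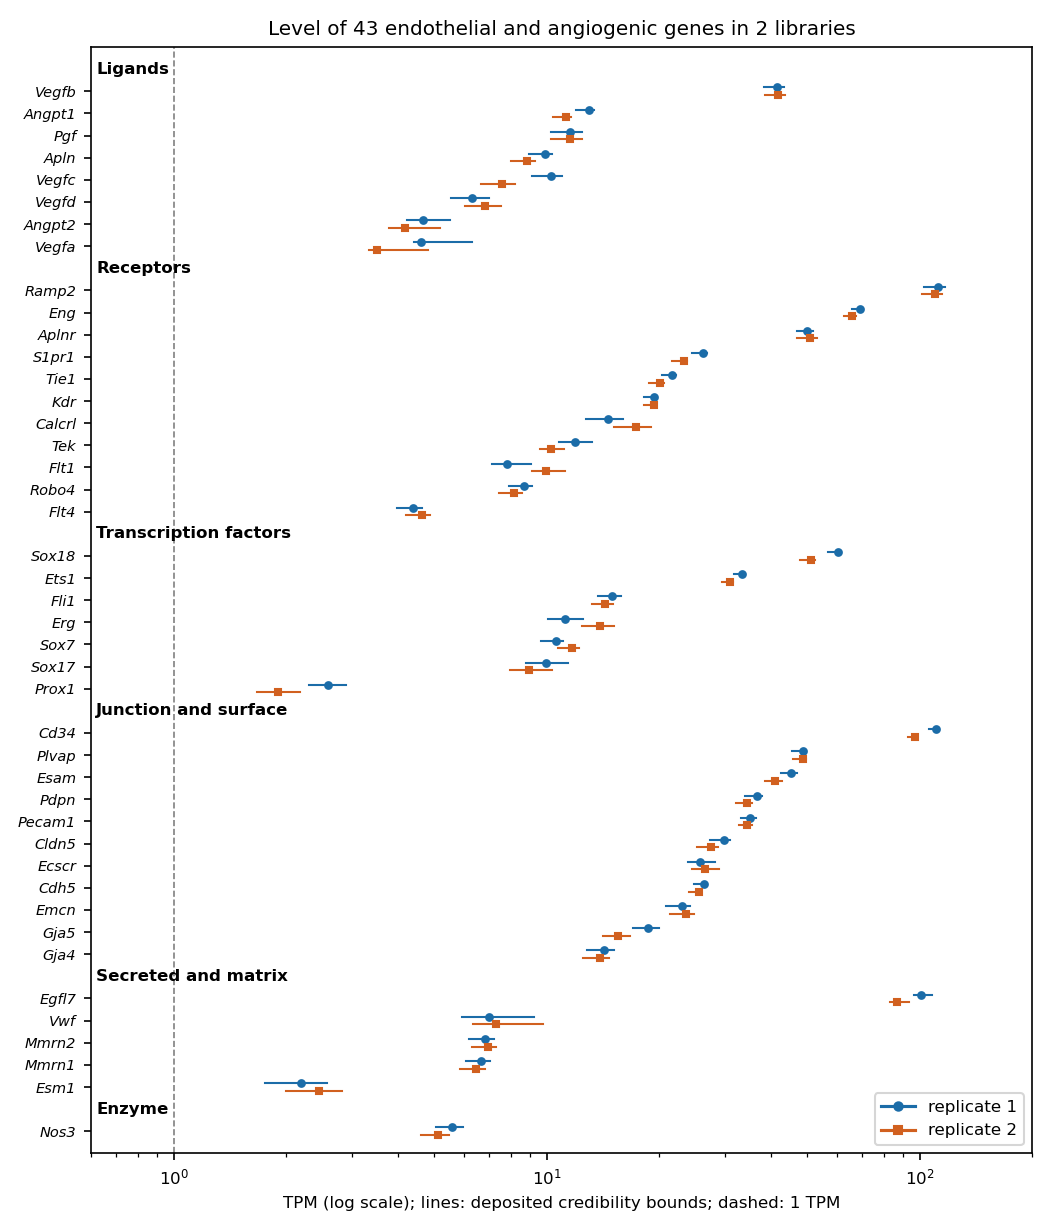
TPM of each of the 43 genes on a log axis, by role, with circles for replicate 1, squares for replicate 2 and lines for the deposited credibility bounds of TPM. All points lie to the right of the dashed line at 1 TPM, Ramp2, Cd34 and Egfl7 are farthest to the right, and Prox1 and Esm1 are farthest to the left.

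Among the 5 VEGF ligand genes, Vegfb had the highest TPM and Vegfa the lowest in both libraries. Vegfb, whose product binds Flt1, had 41.4 TPM in replicate 1 and 41.8 TPM in replicate 2, which was 55.8% and 58.7% of the summed TPM of the 5 genes. Pgf, encoding placental growth factor, also a ligand of Flt1, had 11.6 TPM in each library. Vegfc, the main lymphatic growth factor, had 10.3 and 7.58 TPM. Both bounds of Vegfc in replicate 1 lay above those in replicate 2, so it was the VEGF ligand gene that differed most between the pools. Vegfd, a second ligand of the lymphatic receptor, had 6.29 and 6.82 TPM. The level of Vegfa, the central ligand of blood vessel growth, was 4.61 and 3.50 TPM from 276 and 235 counts. Vegfa made up 6.22% and 4.91% of the ligand sum, and its TPM over that of Vegfb was 0.111 in replicate 1 and 0.0837 in replicate 2. The bounds of the pair did not overlap in either library. Those of Vegfa and Vegfd overlapped in replicate 1 (4.41 to 6.30 and 5.55 to 6.99 TPM) and were apart in replicate 2. Vegfb rested on 1108 and 1168 counts.

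Splicing of both genes sets the end of the protein, and with it how firmly the ligand is held by heparan sulphate on cells and matrix. For Vegfa, the share was read from transcripts that end alike. Vegfa-211 and Vegfa-201 end in the same coding exons, those of the 120-residue form that lacks the heparin-binding part; Vegfa-211 starts at an upstream CTG codon, 178 codons before the ATG. Together they took 71.7% of the gene's transcripts in replicate 1 and 74.0% in replicate 2 (72.8% ± 1.61, SD, n = 2). Their separate shares were unstable, with Vegfa-211 at 63.0% and 34.6% and Vegfa-201 at 8.67% and 39.4%, so the leading transcript differed between the libraries while their sum was close. Vegfa-202, the 164-residue form, was listed at 0 in replicate 1 and took 10.6% in replicate 2, and Vegfa-207, the 188-residue form, was listed at 0 in both. The deposited upper bound of Vegfa-202 was 0.673 TPM in replicate 1 and 1.22 TPM in replicate 2, against 3.30 and 2.59 TPM for the 120-residue pair together, so a low level of the longer form was within the bounds. By posterior mean TPM, Vegfa-202 took 4.07% and 14.1%, and Vegfa-207 took 4.78% and 2.65%. By the same measure, Vegfa-211 took 44.0% and 23.7%, and Vegfa-201 took 11.2% and 32.6%. The share of the 120-residue pair was thus lower by posterior mean in both libraries, and the SD above does not cover that gap. The remaining Vegfa coding transcripts, Vegfa-203 and Vegfa-204, were listed at 0 in both libraries. Vegfa-211 was 3324 bases long in the annotation of the files and is 975 bases long in GENCODE M21, from which the sequences were read; the coding ends are shown because they tell the forms apart. The lines below give, 5′ to 3′ on the minus strand of chromosome 17 (GRCm38), 30 coding bases before the shared part ends at position 46024065 in lower case and the coding bases that follow in capitals.

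Vegfa-202: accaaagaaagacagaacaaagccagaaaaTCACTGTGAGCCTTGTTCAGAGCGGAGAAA
Vegfa-211: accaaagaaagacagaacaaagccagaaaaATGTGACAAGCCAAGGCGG

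The capitals open the heparin-binding stretch in Vegfa-202 and the short common end in Vegfa-211. Vegfb was split almost evenly. Vegfb-201, which encodes the soluble 186-residue form, took 48.9% of the gene's transcripts in replicate 1 and 46.2% in replicate 2. Vegfb-202, which encodes the 167-residue form with a basic, heparin-binding end, took 46.4% and 49.6%. The order of the 2 forms differed between the libraries and their bounds of TPM overlapped in both, so their order was not resolved. The same layout shows where they part, after position 6985805 on the minus strand of chromosome 19 (GRCm38).

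Vegfb-201: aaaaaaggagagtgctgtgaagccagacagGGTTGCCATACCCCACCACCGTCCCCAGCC
Vegfb-202: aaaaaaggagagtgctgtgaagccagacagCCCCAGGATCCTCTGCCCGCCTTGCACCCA

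Both angiopoietin genes were detected. Angpt1, whose product activates the Tek receptor, had 13.0 TPM in replicate 1 and 11.3 TPM in replicate 2. Angpt2, a context-dependent antagonist of that receptor made by endothelium of growing vessels, had 4.67 and 4.16 TPM. Angpt1 over Angpt2 was 2.78 and 2.71, with bounds apart in both libraries. Apln, which encodes the peptide apelin of sprouting endothelium, had 9.87 and 8.84 TPM.

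Of the receptor genes, Ramp2 and Eng were the highest and Flt4 was the lowest. Kdr, encoding VEGF receptor 2, the main signalling receptor for Vegfa, had 19.4 TPM in each library. Flt1, encoding VEGF receptor 1, a high-affinity trap for Vegfa, Vegfb and Pgf, had 7.82 TPM in replicate 1 and 9.96 TPM in replicate 2. Flt4, encoding VEGF receptor 3, which is restricted largely to lymphatic endothelium as vessels mature, had 4.38 and 4.63 TPM. Kdr therefore made up 61.4% and 57.0% of the summed TPM of the 3 receptor genes, Flt1 24.8% and 29.3%, and Flt4 13.9% and 13.6%. Kdr lay above Flt1 by 2.48 and 1.94 times and Flt4 lay below Kdr, at 0.226 and 0.239 of its level, with bounds apart in both libraries.

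The transcripts of Flt1 were divided among 3 forms. Flt1-202, which encodes the full receptor of 1333 residues, had 3.49 and 3.40 TPM, or 44.6% and 34.1% of the gene's transcripts. Flt1-203, which encodes the soluble form of 688 residues that lacks the membrane and kinase parts and binds ligand without signalling, had 2.01 and 2.45 TPM, or 25.7% and 24.6%. A transcript with no coding part, Flt1-201, had 2.32 and 4.11 TPM, or 29.7% and 41.3%. The full receptor transcript was level between the libraries, the bounds of the noncoding one overlapped, and the leading transcript was Flt1-202 in replicate 1 and Flt1-201 in replicate 2. Of the 2 coding transcripts alone, the soluble form was 36.5% in replicate 1 and 41.9% in replicate 2. The bounds of TPM of the 2 coding forms did not overlap in either library. The soluble form arises by reading on into an intron instead of splicing: in the lines below, on the minus strand of chromosome 5 (GRCm38), the shared coding bases end at position 147639225, and the capitals of Flt1-203 start at the very next base, 147639224, while those of Flt1-202 start at the next exon, at 147634523.

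Flt1-202: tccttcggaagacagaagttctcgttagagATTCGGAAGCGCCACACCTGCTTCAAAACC
Flt1-203: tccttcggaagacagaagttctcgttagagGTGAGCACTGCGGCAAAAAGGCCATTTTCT

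The first 657 residues were the same in both proteins. Tie1, encoding an orphan partner of Tek, had 21.7 TPM in replicate 1 and 20.1 TPM in replicate 2, and Tek had 11.9 and 10.3 TPM. Tie1 was higher than Tek in both libraries, by 1.83 and 1.96 times. Most of Tek was the full-length transcript Tek-203, at 71.6% and 72.4%. Aplnr, the apelin receptor gene, had 49.9 and 50.7 TPM, and its ligand gene Apln stood at 0.198 and 0.174 of that level, so here the receptor gene was the higher one.

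The receptor for adrenomedullin, a peptide needed for lymphatic and blood vessel growth, is a dimer of the products of Calcrl and Ramp2. Ramp2 had 112 TPM in replicate 1 and 110.0 TPM in replicate 2, the highest level of the 43 genes, though its bounds overlapped those of Cd34 in replicate 1. Calcrl had 14.6 and 17.4 TPM, so Ramp2 exceeded it 7.65 and 6.33 times. Both genes had noncoding transcripts among the leading ones. The leading Ramp2 transcript, Ramp2-205, had a retained intron and took 32.0% and 35.9%, about as much as the coding Ramp2-204 with 31.9% and 32.9%. All coding transcripts of Ramp2 together had 66.6 and 59.1 TPM, below those of Cd34 with 108 and 95.1 TPM. Of Calcrl, the noncoding Calcrl-203 took 28.7% and 38.0%, and its 2 coding transcripts together had 10.4 TPM in replicate 1 and 10.8 TPM in replicate 2. On the same strand, 1103 exonic bases of Ramp2 overlap those of Vps25, an endosomal sorting gene with 98.1 and 104 TPM, so reads there could have been shared between the genes. Adm, the adrenomedullin gene, had 4.53 and 4.37 TPM.

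S1pr1, encoding the sphingosine 1-phosphate receptor that stabilises vessels, had 26.3 TPM in replicate 1 and 23.3 TPM in replicate 2. Robo4, an endothelial guidance receptor gene, had 8.67 and 8.17 TPM, 0.448 and 0.422 of the Kdr level. Robo4-201 took 61.5% and 65.4% of its transcripts and Robo4-203 took 31.9% and 32.3%. Eng, which encodes the TGF-beta co-receptor endoglin, had 69.3 and 65.9 TPM and exceeded Cdh5 by 2.63 and 2.58 times. Beside the long form Eng-201 (63.8% and 62.3%) and a near-equal form of 652 residues, Eng-205 (19.1% and 18.9%), the libraries held Eng-202, the short endoglin made by keeping an intron, at 13.4% in each. The splits were close between the pools. Long and short endoglin differ in the tail inside the cell: on the plus strand of chromosome 2 (GRCm38) the shared coding bases end at position 32681297, and Eng-202 reads on at the next base.

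Eng-201: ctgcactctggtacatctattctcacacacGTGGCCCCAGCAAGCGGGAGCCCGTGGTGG
Eng-202: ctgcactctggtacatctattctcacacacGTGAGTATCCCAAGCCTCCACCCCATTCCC

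The transcription factor genes were led by Sox18. Sox18 is the SoxF gene that switches on Prox1 in lymphatic precursors; it had 60.5 TPM in replicate 1 and 51.2 TPM in replicate 2, or 74.7% and 71.3% of the summed TPM of the 3 SoxF genes. Sox7 and Sox17, which overlap with Sox18 in blood vessels, were well below it. Sox7 had 10.6 and 11.7 TPM, and Sox17, which favours arterial fate, had 9.95 and 8.94 TPM. Sox18 exceeded Sox7 by 5.73 and 4.38 times and Sox17 by 6.08 and 5.73 times. The ETS family genes with endothelial roles followed.

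Ets1, also active outside vessels, had 33.5 TPM in replicate 1 and 31.0 TPM in replicate 2. Fli1 had 15.0 and 14.3 TPM, and Erg, which keeps endothelial genes on in mature vessels, had 11.2 and 13.9 TPM. Ets1 was above Erg in both libraries, by 2.98 and 2.24 times, whereas the bounds of Fli1 and Erg overlapped in replicate 2, where their ratio was 1.03. Prox1, the master regulator of lymphatic identity, also used in muscle and nerve, had 2.59 and 1.90 TPM from 457 and 332 counts. Prox1 was the lowest of the 43 genes by mean and the one with the largest ratio between the pools. It stood at 0.591 and 0.410 of the Flt4 level, with bounds apart in both libraries.

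Among junction and surface genes, Cd34 was by far the most abundant. Cd34, encoding a sialomucin of endothelial, blood progenitor and mesenchymal cells, had 111 TPM in replicate 1 and 97.3 TPM in replicate 2. Pecam1, a homophilic adhesion gene of endothelium, platelets and leukocytes, had 35.0 and 34.4 TPM. Cdh5, encoding VE-cadherin, the adhesion protein of endothelial junctions, had 26.3 and 25.6 TPM. Pecam1 over Cdh5 was 1.33 and 1.35, and Cd34 over Pecam1 was 3.16 and 2.83, with bounds apart each time.

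Both Cd34 and Pecam1 were split between forms that differ in the tail inside the cell. Cd34-201, the full form of 382 residues, took 60.6% and 62.0% of the gene's transcripts. Cd34-202, the truncated form of 325 residues that lacks most of that tail, took 37.2% and 35.7%. Of Pecam1, the form of 697 residues, Pecam1-203, took 53.4% and 51.6%, and Pecam1-202, with 716 residues, took 29.96% and 27.3%. The shares of all 4 transcripts differed by less than 3 points between the pools, and in both genes the order held in both libraries. The forms of Cd34 part at position 194959230 on the plus strand of chromosome 1, and those of Pecam1 at position 106679549 on the minus strand of chromosome 11 (GRCm38), where Pecam1-203 skips 57 coding bases; lower case is shared coding sequence and capitals are the coding bases that follow.

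Cd34-201: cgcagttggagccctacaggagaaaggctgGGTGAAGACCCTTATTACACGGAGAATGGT
Cd34-202: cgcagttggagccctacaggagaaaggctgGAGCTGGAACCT
Pecam1-202: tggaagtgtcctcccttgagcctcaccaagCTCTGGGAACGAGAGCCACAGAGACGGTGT
Pecam1-203: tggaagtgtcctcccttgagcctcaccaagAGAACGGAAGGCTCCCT

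The shared parts were 321 residues in Cd34 and 691 residues in Pecam1. The other genes of junction proteins, Esam, Cldn5, Gja5 and Gja4, were spread, with Esam the highest and Gja4 the lowest. Esam, encoding an adhesion molecule of endothelial junctions and platelets, had 45.2 TPM in replicate 1 and 40.9 TPM in replicate 2. Cldn5, the main claudin of endothelial tight junctions, had 29.9 and 27.6 TPM, and its bounds overlapped those of Cdh5 in replicate 2. Gja5, encoding the arterial connexin 40, had 18.7 and 15.5 TPM, and Gja4, encoding connexin 37, had 14.3 and 13.9 TPM. The 2 connexin genes were apart in replicate 1, with Gja5 higher, and overlapped in replicate 2. Exonic bases of Gja5 overlap 165 bases of Gpr89 on the opposite strand, a gene at 25.6 and 24.6 TPM, and the strand setting of the counting is not given in the sources used here.

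Plvap, which encodes the diaphragm protein of fenestrated endothelium, had 48.6 TPM in replicate 1 and 48.7 TPM in replicate 2. Emcn, an endomucin gene typical of capillaries and veins, had 23.0 and 23.6 TPM, so Plvap was 2.11 and 2.07 times higher. Ecscr, an endothelial chemotaxis gene, had 25.8 and 26.6 TPM. These were among the most even genes between the pools. Pdpn, encoding podoplanin, a lymphatic surface protein that osteoblast-lineage and epithelial cells also make, had 36.7 and 34.5 TPM, which was 14.2 and 18.1 times the level of Prox1. That was the widest of the 25 gene pairs compared.

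The secreted and matrix genes were uneven, with 1 high gene and 4 low ones. Egfl7, an endothelial matrix factor, had 101 TPM in replicate 1 and 87.2 TPM in replicate 2, and it is also the host gene of miR-126, a microRNA of endothelium. Its transcripts were the most divided of the 43 genes: 19 were annotated in the files and the leading one, Egfl7-202, took 29.1% and 30.6%. The mature strand of the host's microRNA (RefSeq, chr2:26591402-26591423, plus strand, GRCm38.p6) is printed with its seed, bases 2 to 8, in capitals.

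mmu-miR-126a-3p: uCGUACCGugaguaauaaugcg

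The row of the Mir126a precursor, 73 bases long, was listed at 0 in both libraries. All gene rows of up to 99 bases had an effective length of 0 in the tables, so that 0 is no measurement of the microRNA. Egfl7 shares 64 exonic bases with Agpat2 on the opposite strand, which had 25.9 and 24.95 TPM.

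Mmrn1 and Mmrn2 encode multimerins, the first of lymphatic endothelium and platelets and the second of blood vessel endothelium. Mmrn2 had 6.85 TPM in replicate 1 and 6.96 TPM in replicate 2, and Mmrn1 had 6.67 and 6.45 TPM, with overlapping bounds in both libraries. Vwf, encoding von Willebrand factor of endothelium and megakaryocytes, had 7.01 and 7.31 TPM, 0.200 and 0.213 of the Pecam1 level. Its transcripts were divided. The leading Vwf transcript was a processed one of 456 bases, Vwf-209, with 31.7% and 41.7%, and the transcript of 8817 bases took 24.9% and 29.8%. GENCODE M21 does not hold that transcript, and by posterior mean TPM its share was 8.43% and 16.4%. The full-length coding transcript of M21, Vwf-203, was listed at 0.06% and 0% but took 13.9% and 9.50% by posterior mean. The TPM of the 8817-base transcript, 1.75 in replicate 1 and 2.18 in replicate 2, lay above its own deposited upper bounds of 1.48 and 2.15, so its share is uncertain. Esm1, encoding endocan of sprouting tip cells, had 2.19 and 2.45 TPM from 108 and 126 counts, the fewest of any member. Nos3, encoding endothelial nitric oxide synthase, had 5.58 and 5.11 TPM. Exons of Nos3 overlap 294 bases of Atg9b on the opposite strand, which had 3.80 and 3.08 TPM, and such overlaps with a gene at 1 TPM or more were found for 5 of the 43 genes, the fifth being Eng with 61 bases of Fpgs.

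Transcripts of most members were simple. The files gave 1 transcript for 13 genes and 2 or more for 30. The leading transcript was the same in both libraries for 40 of 43 genes, the exceptions being Vegfa, Vegfb and Flt1. It was protein coding in both libraries for 40 of 43, the exceptions being Flt1 in replicate 2 and Ramp2 and Vwf in both. In 9 genes at least 2 transcripts each took 20% or more in both libraries, and noncoding transcripts summed to 20% or more in both for 5 genes. Shares are estimates, since many reads fit more than 1 transcript of a gene.

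**Figure D2:**
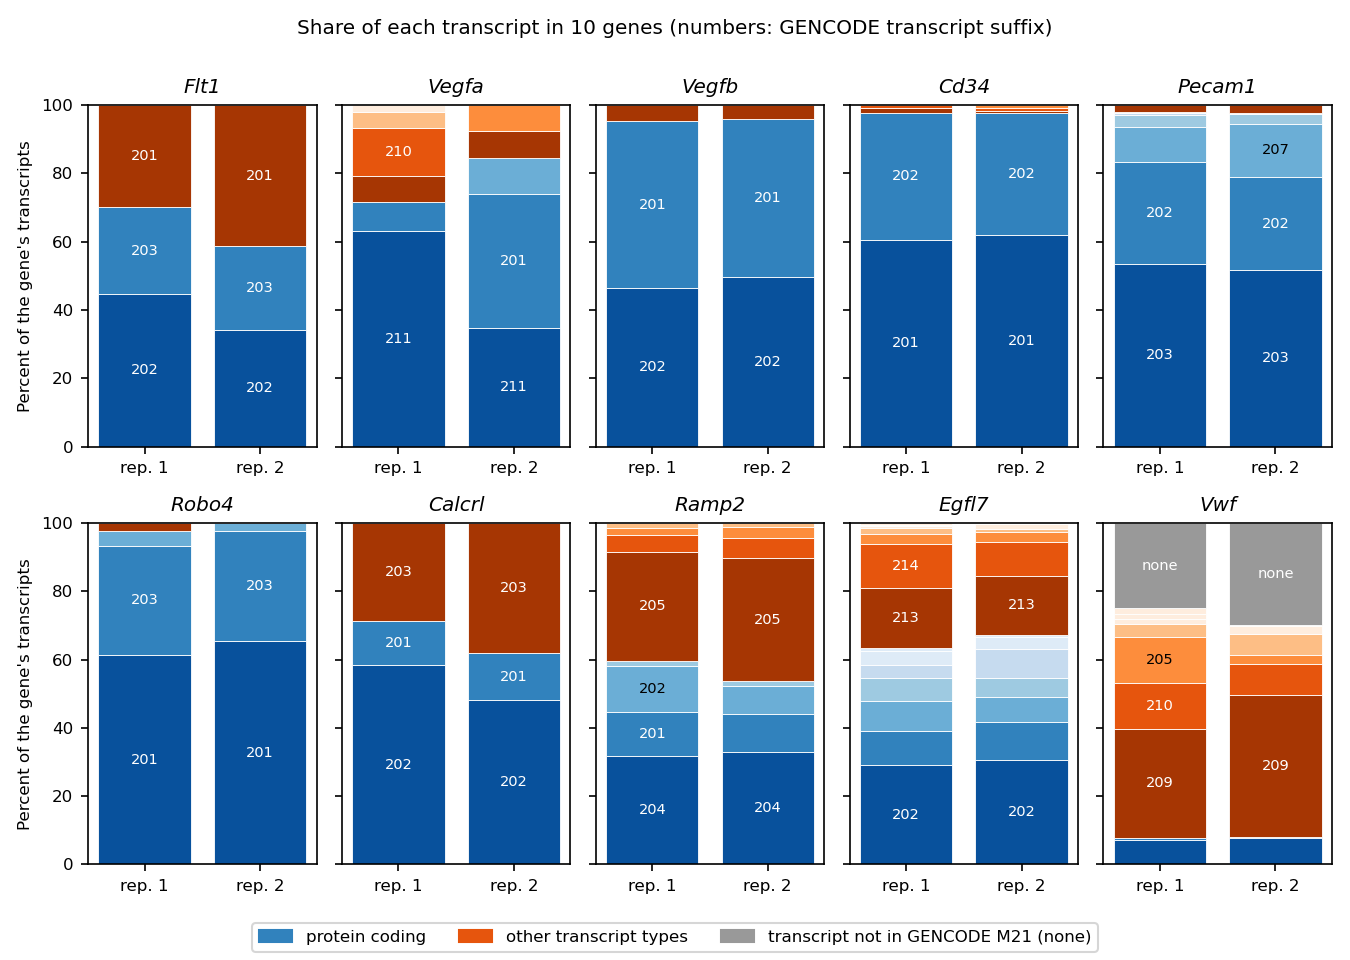
Percent of each gene's transcripts taken by each annotated transcript in replicates 1 and 2, for 10 genes; blue is protein coding, orange other types and grey a transcript that GENCODE M21 does not hold. The bars of Cd34, Vegfb, Pecam1 and Robo4 look alike in both libraries, while Flt1-201 takes 29.7% in replicate 1 and 41.3% in replicate 2, and Vegfa-211 leads in replicate 1 and Vegfa-201 in replicate 2.

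Of the 25 gene pairs compared, 20 had the same order in both libraries with bounds of TPM that did not overlap in either. In 12 of these the first named gene was higher and in 8 the second. The other 5 pairs, Vegfc with Vegfd, Fli1 with Erg, Cldn5 with Cdh5, Gja4 with Gja5 and Mmrn2 with Mmrn1, overlapped in at least 1 library. When the 43 genes were ranked by mean TPM, only 5 of the 42 neighbouring pairs had bounds apart in both libraries, and 15 changed order between the libraries. The 5 breaks lay between Egfl7 and Eng, Eng and Sox18, Vegfb and Pdpn, Ets1 and Cldn5, and Vegfa and Esm1.

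**Figure D3:**
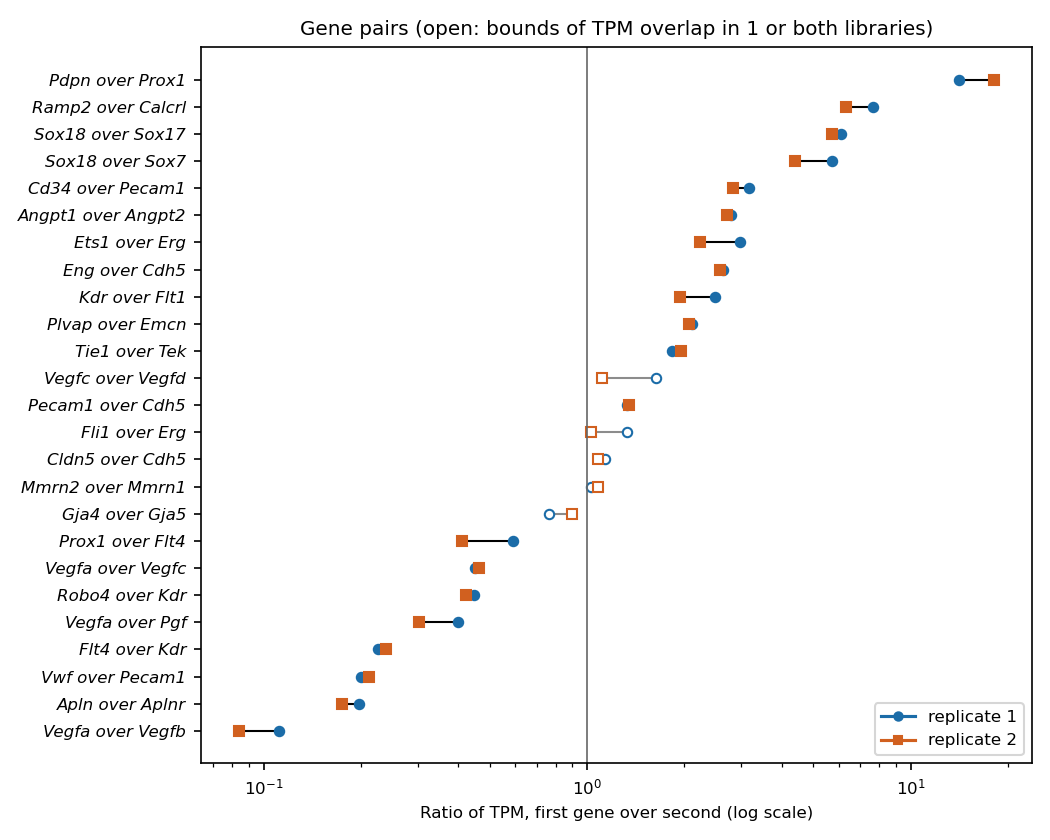
Ratio of TPM of the first gene over the second in replicate 1 (circles) and replicate 2 (squares) on a log axis for 25 gene pairs; open symbols mark pairs whose bounds of TPM overlap in at least 1 library. Pdpn over Prox1 is farthest right at 14.2 and 18.1, Vegfa over Vegfb is farthest left at 0.111 and 0.0837, and the open symbols lie around 1.

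Between the 2 pools, the 43 genes kept close levels. The ratio of replicate 2 over replicate 1, from counts after scaling, had a median of −0.07 on the log2 scale, with 15 genes higher and 28 lower in replicate 2. Among genes with at least as many counts as the lowest member, 50.4% were lower in replicate 2. Scaling by the spike-ins moved the median of all genes to −0.65 and put all 43 members lower, at a median of −0.07 relative to that shift. None of the 43 was past 1.5-fold, against 9.08% of the 18318 genes compared and 3.78% of the 13821 with at least as many counts as the lowest member. The counting interval left out equality for 19 of 43 genes. It did so for 35.9% of all genes compared, 40.6% of those with at least as many counts and 37.2% of coding genes. For both directions together, the share among the members was near the background. Of these 19, 4 were higher in replicate 2 (17.5% of all genes were) and 15 were lower (18.3% of all genes were). The members thus leaned lower, where all genes were near even. With total gene counts 25 of the 43 were lower, and the median of all genes was 0.03. Lists described below leaned lower too, with median log2 ratios of −0.07 for further endothelial genes and −0.12 for basal epithelial genes. Others leaned higher, at 0.10 for venous and 0.18 for facial mesenchyme genes. A lean to lower values was thus not particular to the members. Shares by direction were not taken among genes with as many counts.

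The genes that moved most were Prox1, Vegfc and Vegfa. The log2 ratio was −0.52 for Prox1 (interval −0.73 to −0.31), −0.43 for Vegfc (−0.64 to −0.23) and −0.29 for Vegfa (−0.55 to −0.04). All of these were lower in replicate 2, and the first and second of them act in lymphatic vessels. Sox18, the regulator upstream of Prox1, was also lower beyond counting error, at −0.24 (−0.33 to −0.15). The intervals of the other members tied here to lymphatic vessels, Vegfd at 0.08, Flt4 at 0.07, Mmrn1 at −0.07 and Pdpn at −0.08, held equality. Of the 10 further lymphatic genes listed below, Lyve1, Reln, Ccl21a and Itga9 were lower beyond counting error, with log2 ratios of −0.28, −0.43, −0.18 and −0.16, and Foxc2, Gata2 and Adamts3 were higher, with 1.22, 0.36 and 0.34. Other members lower beyond counting error were Gja5 at −0.24, Egfl7 at −0.21, Angpt1 and Cd34 at −0.20 and S1pr1 at −0.17. Apln, Tie1, Esam, Eng, Ets1 and Aplnr were also among them, from −0.16 for Apln to −0.07 for Aplnr. The interval of Aplnr (−0.13 to −0.01) came close to equality, and its log2 ratio was −0.04 with total gene counts. In TPM, Aplnr was instead slightly higher in replicate 2, with 49.9 and 50.7 TPM. The members higher in replicate 2 beyond counting error were Erg, Flt1, Vwf and Sox7, with log2 ratios of 0.19, 0.19, 0.18 and 0.15. These ratios take in noncoding transcripts, which led Vwf in both libraries and Flt1 in replicate 2. Intervals cover counting error only, and the pools differed in embryos as well as in library.

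**Figure D4:**
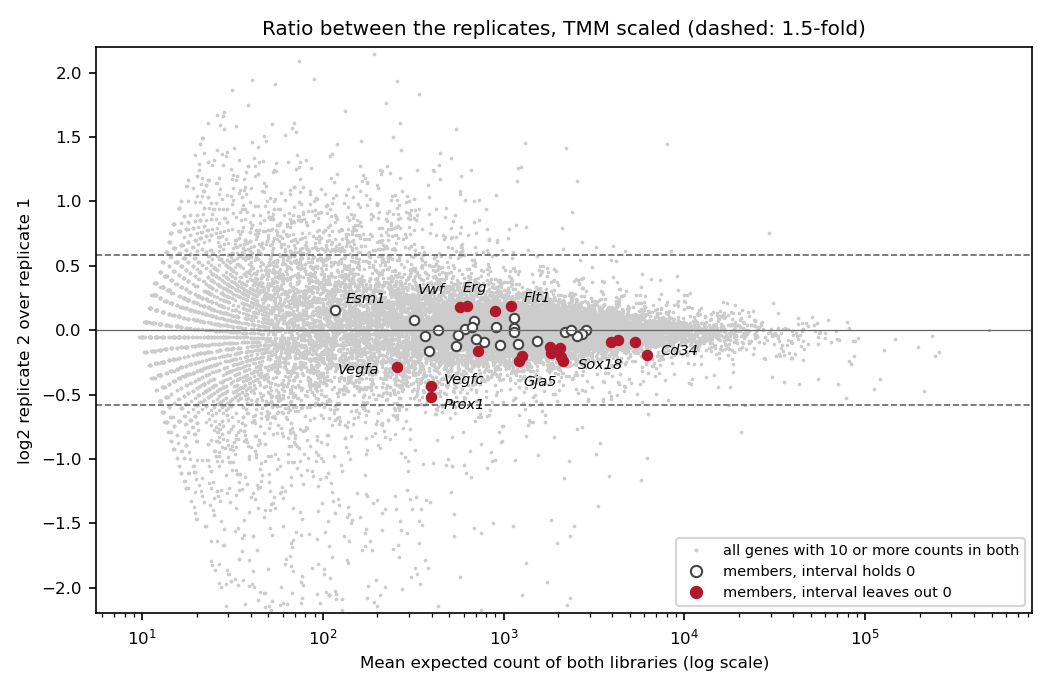
Log2 ratio of replicate 2 over replicate 1 against the mean expected count (log axis); grey points are the genes with at least 10 counts per library (40 lie past the plotted range of 2.2), filled red points are members whose counting interval leaves out equality and open points the other members. All 43 members lie between the dashed lines at 1.5-fold, and Prox1 lies lowest at −0.52.

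Other gene lists place these levels in the tissue. Of 24 further endothelial genes, 22 reached 1 TPM in both libraries, with a median of 10.1 TPM against 14.6 TPM for the 43 members. The highest were Aqp1, a water channel of capillaries and other cells, with 94.4 and 96.8 TPM, Rhoj, a small GTPase, with 56.8 and 48.9 TPM, and Klf4, a transcription factor shared with epithelium, with 36.3 and 33.8 TPM. The exceptions were Tal1, a blood and endothelial progenitor factor at 0.78 and 0.55 TPM, and Etv2, the early inducer of endothelium, listed at 0 in replicate 1 and at 0.04 TPM in replicate 2. All 15 further genes of the VEGF and angiopoietin pathway were detected, at a median of 12.2 TPM, and Hif1a, Nrp1 and Dusp6 were the highest. Nrp1, the co-receptor of the heparin-binding VEGF forms, had 54.9 and 55.1 TPM, above each of the 3 receptor genes. Epas1, an oxygen-sensing factor of endothelium, was past 1.5-fold between the pools, with 4.76 and 7.77 TPM, as was Angpt4, with 2.21 and 1.08 TPM.

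Genes listed for arteries, veins and lymphatics were detected, but RNA of a whole tissue does not show which cells made them. Of 10 arterial and Notch genes 9 were detected, led by Hey1 with 32.8 and 33.7 TPM, Jag1 and Efnb2. The exception was Bmx, with 0.89 TPM in replicate 1 and 1.26 TPM in replicate 2. The venous genes Ephb4, with 48.4 and 52.1 TPM, Nrp2 and Nr2f2 were all detected. Of 10 further lymphatic genes 9 were detected. The highest of them were Ccl21a, Gata2 and Nr2f2. Ccl21a, a chemokine gene of lymphatic endothelium with near-identical copies in the mouse genome, had 87.8 and 77.6 TPM, and Lyve1, also made by macrophages, had 11.6 and 9.54 TPM. Foxc2, a lymphatic valve factor also used in mesenchyme and cartilage, was past 1.5-fold, with 1.89 and 4.42 TPM, and Stab2 was under 1 TPM. Of 4 brain endothelium genes only Slc2a1 and Mfsd2a were detected, the first of which many cells express, and of 4 endocardial genes only Nfatc1 and Npr3 were.

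Some members are also made by other cell types that the tissue held. The macrophage list was detected in full, 10 of 10, and summed to 428 TPM in replicate 1 and 405 TPM in replicate 2. Of the 10 megakaryocyte and platelet genes, 4 were detected and the list summed to 110 and 101 TPM, of which Pf4 made 93.9 and 85.4 TPM. Gp6, a defining platelet gene, had 0.08 and 0.04 TPM, and none of the list was at 0. No lymphocyte gene of 6 was detected, and the list summed to 1.31 and 1.27 TPM. Pericyte and smooth muscle genes were detected 9 of 9, at a median of 14.6 TPM, facial mesenchyme genes 8 of 8, at 53.4 TPM, osteoblast genes 6 of 6, at 25.98 TPM, and basal epithelial genes 6 of 6, at 411 TPM. Chondrocyte genes were higher in replicate 2 for 6 of 6, at a median log2 ratio of 0.62, all 6 beyond counting error. Erythroid genes were lower for 6 of 6, at −0.35, with 4 of them beyond counting error. The part of these differences in the ratios of the 43 members was not tested.

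**Figure D5:**
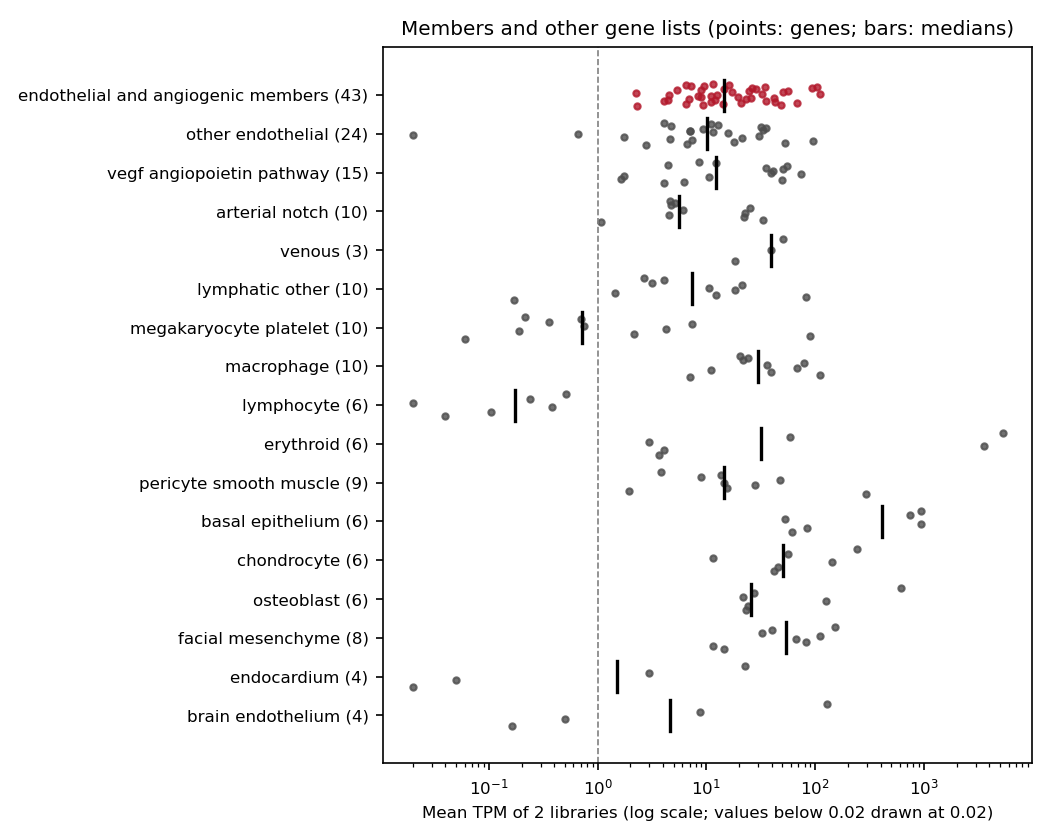
Mean TPM of the 2 libraries on a log axis for the 43 members (red) and for 16 other gene lists (grey), 1 point per gene, with a bar at each median and the number of genes in brackets. The members lie between 2.25 and 111 TPM, most lymphocyte and platelet genes lie left of the dashed line at 1 TPM, and basal epithelial and erythroid genes reach far to the right.

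Promoter letters were examined because several of the transcription factors above belong to families with known binding motifs. RefSeq (GRCm38.p6) gave a window of 250 bases before to 50 after the start for 25 of the 43 genes. CAGGAA, a short form of the ETS motif, stood on either strand in at least 1 window of 15 of these 25 genes, and in 33.4% of 27025 genes with such a window. The longer AACAGGAA, which includes those letters and joins forkhead and ETS letters, was found in Calcrl, Egfl7 and Emcn and in 2.96% of all genes. The SOX letters AACAAT were found in 5 of the 25 genes and 12.2% of all genes, the forkhead letters GTAAACA in 1 and 4.05%, the hypoxia core ACGTG in 2 and 21.8%, TATAAA in 4 and 15.7%, and the ETS letters ACCGGAAG in 0 and 2.60%. A match in letters is a description and no binding was measured. The 3 windows with the longer match are shown for the 250 bases before the start, in lower case with CAGGAA or its complement TTCCTG in capitals, and are at chr2:84425267-84425516 on the minus strand for Calcrl, chr2:26580833-26581082 on the plus strand for Egfl7 and chr3:137340828-137341077 on the plus strand for Emcn.

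Calcrl: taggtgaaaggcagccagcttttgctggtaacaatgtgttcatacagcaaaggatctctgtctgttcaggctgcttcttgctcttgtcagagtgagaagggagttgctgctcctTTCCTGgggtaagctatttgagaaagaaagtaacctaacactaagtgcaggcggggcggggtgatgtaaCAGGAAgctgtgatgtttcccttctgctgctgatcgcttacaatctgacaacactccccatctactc
Egfl7: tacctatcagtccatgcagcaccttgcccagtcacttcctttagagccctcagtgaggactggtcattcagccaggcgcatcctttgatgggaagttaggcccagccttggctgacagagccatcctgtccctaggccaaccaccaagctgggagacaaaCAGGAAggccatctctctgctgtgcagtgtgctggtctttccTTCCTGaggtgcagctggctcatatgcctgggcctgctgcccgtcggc
Emcn: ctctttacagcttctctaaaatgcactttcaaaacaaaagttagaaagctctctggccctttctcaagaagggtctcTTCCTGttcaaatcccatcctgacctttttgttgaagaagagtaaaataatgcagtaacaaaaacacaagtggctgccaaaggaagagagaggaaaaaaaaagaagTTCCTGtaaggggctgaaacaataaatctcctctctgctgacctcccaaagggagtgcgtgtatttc

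Each of the 3 windows held the capitals at 2 places. In Calcrl and Emcn the SOX letters were also present.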

How the data were processed

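The 2 libraries of total RNA of 1 tissue formed 1 group. The labels name RNA over 200 bases long, 10 ng per library and a spike-in set, and also link the manual of a low-input kit; whether poly(A) RNA was selected is unknown. Per the text deposited with the samples, reads were aligned to the transcriptome of mm10 with annotation M4 and each library was quantified alone; the aligner, quantifier and strandedness were not given in the sources used here. The authors deposited, per the file headers, TPM, posterior mean TPM, FPKM and an expected count per gene and transcript, and the percent of a gene's transcripts per transcript. The deposited credibility bounds, in TPM but summing to no fixed total, were recorded as a score, at a level the tables do not state. TPM was scaled over all 69691 rows, including 97 spike-ins and 26248 numbered sequences, which were left out of comparisons.

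Names and coordinates of genes and transcripts came from GENCODE M21 (GRCm38), where 42462 of 43346 gene identifiers were found. Detection meant at least 1 TPM in each library. Values are TPM in each library with the SD of 2 pools. For the ratio between replicates, expected counts were rounded to whole numbers and scaled by TMM factors of 0.989 and 1.01 (edgeR 4.0.16, R 4.3.3), with a prior count of 2, for genes with at least 10 counts per library. Counting intervals were exact 95% Clopper-Pearson intervals (scipy 1.17.1) of the replicate 2 share of a gene's counts, and they cover counting error only. The ratio step was tested on simulated counts. A pair was called ordered when both libraries gave 1 direction and bounds did not overlap in either. Alternatives used DESeq2 1.42.0 size factors, total and spike-in counts, other thresholds, posterior means and single libraries. Python 3.11.15, numpy 2.4.6, pandas 2.3.3 and matplotlib 3.10.9 did the rest.

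The members, lists, pairs and motifs were chosen with earlier results of these data known. All members are accounted for; of each other list the 3 most abundant genes were to be named, of the lists of other cell types mostly the sums are given, and further genes of these lists and the transcript pairs whose sequences are printed were chosen after their values were seen. Signal peptide lengths behind the named VEGF forms, 26 residues for Vegfa and 21 for Vegfb, are textbook values. Protein identity was planned and not computed.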

Additional observations from a re-analysis of the deposited data

How the results depend on the processing

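Every count and level below had 2 pools of 1 group behind it, and no p-value was computed. No paired analysis was possible because there was a single group with 1 library per replicate number. The count of detected members was 42 at 2 TPM and 43 by posterior mean TPM. It was also 43 at 0.5 TPM, with TPM rescaled over genes and with either replicate left out. Those last settings cannot lose a member that the main count held. The median member level, 14.6 TPM, was 16.0 TPM after rescaling over genes, and from 14.3 to 14.6 TPM with 1 replicate left out. The median log2 ratio, −0.07, was −0.037 with total gene counts and −0.72 with spike-in counts, where the median of all genes was −0.65. With spike-in counts 35 members (65.5% of all genes) were past 1.5-fold in place of 0, and 43 (84.0% of all genes) were off equality by counting error in place of 19. That count was 18 with DESeq2 size factors (35.9% of all genes), 17 with total gene counts (36.9%) and 13 with a 99% interval (25.4%). The 20 ordered pairs were 20 by posterior mean TPM and by FPKM. Overlap was still judged by the bounds of TPM there, so these settings were no independent check of the order. With 1 library, which can only keep or add pairs, the count was from 20 to 24. Among single members, the TPM of 31 moved by more than 1 SD when rescaled over genes and that of 11 with posterior means, while no ratio left its counting interval under DESeq2 size factors or total gene counts. Rescaling multiplied the TPM of every gene by 1 factor per library. The members that moved under it were thus those with a small SD beside that common shift. The cause of the other moves was not tested. Depth limits Esm1 most among the members, and the shares of Vegfa transcripts rest on 276 and 235 counts.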
